A study of Homo sapiens and Mus musculus with 4 samples.

Results

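PALLD and RBMS1 hold some of the longest chains of TEAD peaks in the deposited list of human RD cells, and they were chosen by the number and spacing of those peaks. PALLD encodes palladin, a scaffold protein of actin stress fibres and focal adhesions. RBMS1 encodes a protein that binds RNA and single-stranded DNA. The members are the TEAD peaks whose midpoint lies in the body of either gene or within about 50 kb of it, in the human list and at the mouse orthologs in the mouse list. They numbered 68 of the 22681 RD peaks (39 at PALLD and 29 at RBMS1) and 53 of the 47033 YAP-ERMS peaks (27 at Palld and 26 at Rbms1), or 121 of 69714 in all. Because of that choice, every RD value below is a description and supports nothing about them.

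The study measured TEAD binding by chromatin immunoprecipitation and sequencing in 4 libraries of 1 each, so no value has a replicate error. RD is a human embryonal rhabdomyosarcoma cell line. Its TEAD library was called against an IgG library of the same cells. YAP-ERMS are mouse cells from tumours driven by YAP, and their TEAD library was called against input chromatin. For these tumours the labels name the Cre lines Myf5-Cre and Pax7-CreER, without saying with which of them the sequenced cells were made. Myf5-Cre recombines in Myf5-expressing muscle progenitors, and Pax7-CreER is a tamoxifen-dependent Cre of Pax7-expressing satellite cells. No treatment, time or age is given for any library, and peak lists hold no expression by which a cell type could be checked. Which TEAD proteins the antibody recognises is not given in the sources used here, and the depth of the libraries is unknown.

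TEAD proteins are the DNA-binding partners of YAP1, which has no DNA-binding domain of its own and reaches chromatin through them. They bind the M-CAT element, whose core letters are CATTCC, and in muscle cells this element is known from contractile genes. YAP and TEAD together are known to bind largely at enhancers away from promoters, and to regulate genes of the actin cytoskeleton and of cell adhesion.

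The promoters of the human genes are shown because they are the only regulatory sequence of the members used here. They are the 250 bases before each start in RefSeq's GRCh38.p14 annotation, 5′ to 3′ on the strand of the gene, with CATTCC or its reverse complement GGAATG in capitals. The peaks are on hg19. The promoter positions were not converted to that build and were not set against the peaks, so whether a chain of peaks holds a start was not determined. Peak sequences were not used here.
PALLD promoter at chr4:168496802-168497051 (plus strand): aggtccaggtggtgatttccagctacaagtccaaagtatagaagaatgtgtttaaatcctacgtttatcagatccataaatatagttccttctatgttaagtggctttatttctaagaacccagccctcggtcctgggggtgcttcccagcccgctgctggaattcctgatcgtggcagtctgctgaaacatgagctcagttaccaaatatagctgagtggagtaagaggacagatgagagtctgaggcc
PALLD promoter at chr4:168631328-168631577 (plus strand): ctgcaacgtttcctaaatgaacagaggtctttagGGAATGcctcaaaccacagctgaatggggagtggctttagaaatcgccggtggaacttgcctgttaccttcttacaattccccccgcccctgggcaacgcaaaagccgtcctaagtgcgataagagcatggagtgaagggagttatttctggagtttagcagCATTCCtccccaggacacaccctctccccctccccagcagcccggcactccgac
PALLD promoter at chr4:168831845-168832094 (plus strand): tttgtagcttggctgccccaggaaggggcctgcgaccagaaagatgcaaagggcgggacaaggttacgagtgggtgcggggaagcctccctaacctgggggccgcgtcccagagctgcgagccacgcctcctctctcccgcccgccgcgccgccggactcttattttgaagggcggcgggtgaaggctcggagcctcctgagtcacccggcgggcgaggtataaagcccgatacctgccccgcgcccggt
RBMS1 promoter at chr2:160493808-160494057 (minus strand): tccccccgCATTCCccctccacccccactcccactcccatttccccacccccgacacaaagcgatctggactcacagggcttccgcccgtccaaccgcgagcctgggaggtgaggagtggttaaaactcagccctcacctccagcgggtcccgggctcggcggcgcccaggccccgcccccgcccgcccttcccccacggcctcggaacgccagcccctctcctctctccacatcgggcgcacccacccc
The letters occurred in 2 of these 4 promoters. The second PALLD promoter held GGAATG and CATTCC, with first letters 216 and 54 bases before the start, and the RBMS1 promoter held CATTCC 242 bases before the start. Of 35116 RefSeq promoters of the same length, 11.9% held the motif on either strand and 0.928% held it at least 2 times. A match of these letters is no evidence of binding, and the other 2 promoters of PALLD lacked only these letters in this window.

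At PALLD, 39 RD peaks lay between 169.37 and 169.90 Mb of chromosome 4 (hg19), or 73.6 per Mb, and covered 15.4 kb. Among all windows of 530 kb set every 50 kb along the RD list, the median held 2 peaks and 0.0274% held 39 or more. These were 16 windows, of which 5 overlap the PALLD window itself. On chromosome 4 alone the share was 0.131%, and over the whole list with peaks scoring 160 or more it was 0.0498%. The 10 Mb around the window held 4.50 peaks per Mb, so that the PALLD peaks stood as a dense island in a sparse stretch. The median score was 250.6, against 189 over the list, with a range from 84.6 to 1109. The score is the authors' own, taken here as the negative log10 of a p-value times 10, so it depends on depth and is compared only within a list. Scores of 1000 or more were held by 1 of the 39 peaks, against 5.47% of the list.

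**Figure D1:**
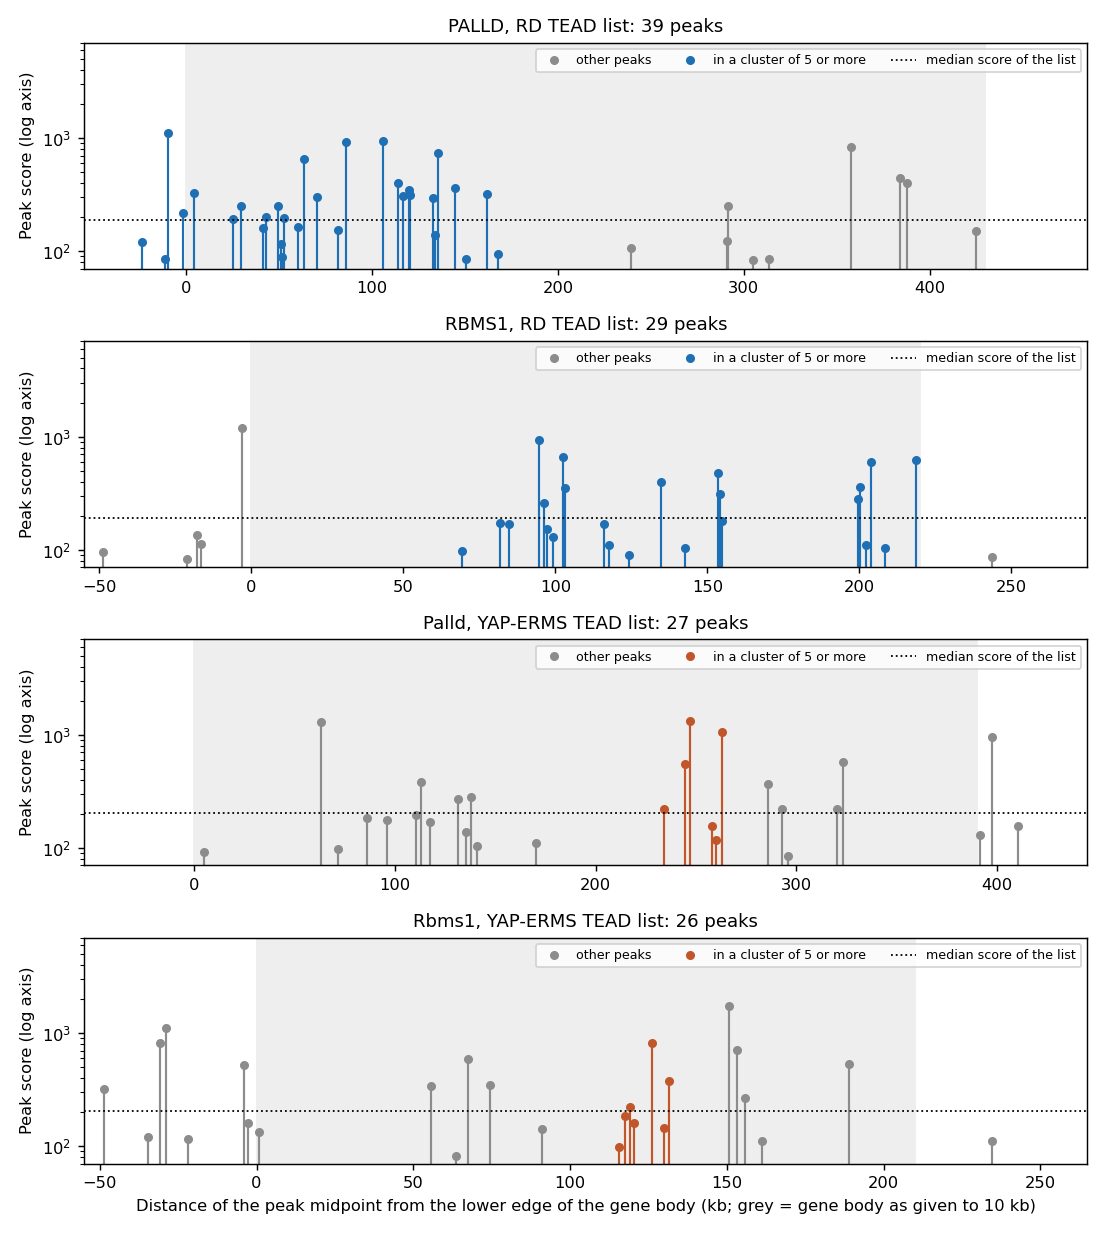
TEAD peaks at PALLD and RBMS1 in RD and at the orthologs in YAP-ERMS, by distance of the midpoint from the lower edge of the gene body (kb) and by peak score (log axis). Coloured stems are peaks in clusters of 5 or more with gaps of at most 12500 bp. In RD they make up 30 of 39 peaks at PALLD and 23 of 29 at RBMS1 (9.38% of the list). In YAP-ERMS they make up 6 of 27 and 7 of 26 (17.6% of the list).

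The PALLD peaks were unevenly spread along the gene. PALLD runs on the plus strand, so its 5′ end is the lower edge of the gene body, which the rule places at 169.42 Mb to the nearest 10 kb. Peaks within 10 kb of such an edge cannot be placed inside or outside the gene here. PALLD has several RefSeq starts, all on the plus strand, with promoters ending at 168497051, 168631577 and 168832094 on GRCh38.p14. The later starts lie downstream of the first, so 5′ and 3′ name only the sides of the gene body. The 3′ side may hold a start of its own, and where the starts lie among the peaks was not determined. Of the 35 peaks in the gene body, 26 lay on the 5′ side of its midpoint, or 74.3% (Wilson 95% interval 57.9% to 85.8%). The interval covers counting error only and takes each peak as an independent draw, so it is too narrow for peaks in chains. When the body was cut into 3 equal parts, they held 22, 5 and 8 peaks from 5′ to 3′. The median score was 275 over the 26 peaks on the 5′ side and 150 over the 9 on the 3′ side. The latter included scores of 828, 444 and 401, so the lower median rests on few peaks of mixed score. No peak lay within 71.3 kb beyond 169587821, and the peaks after that stretch were scattered.

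Clusters were defined as chains of at least 5 peaks with gaps of at most 12500 bp, and 30 of the 39 PALLD peaks were in one, against 9.38% of the RD list. The first chain of 5 peaks spanned 28.7 kb at the 5′ edge of the gene, from 169395773 to 169424467. It held the highest scoring peak of the gene, 687 bp at 169409852 to 169410538 with a score of 1109, about 10 kb below the edge as given. It also held a peak of 423 bp at 169417827 to 169418249, within the 10 kb rounding of that edge, with a score of 219.9.

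The second chain held 13 peaks over 60.9 kb, from 169445169 to 169506066, with a median score of 197.3. Its highest peak was its last, at 169505521 to 169506066, with a score of 929. The third chain followed after 19.5 kb and held 12 peaks over 62.3 kb, from 169525542 to 169587821, with a median score of 316. Its first peak, at 169525542 to 169526152, was its highest with a score of 942, and its widest, at 169563970 to 169564751, was 782 bp wide with a score of 363. The highest peaks of both long chains therefore faced each other across the gap between them.

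The PALLD counts turned on the gap allowed. With the largest gap set to 5 kb, 0 of the 39 PALLD peaks were in a cluster of 5 or more. With 25 kb, the 3 chains joined into 1 of 30 peaks over 192 kb, from 169395773 to 169587821, which had more peaks than any other of the 685 such chains in the RD list.

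The 9 other PALLD peaks lay between 169659083 and 169845103. The strongest of them, at 169777395 to 169777914, had a score of 828, which was the fourth highest of the window, with its nearest neighbour 26.1 kb away. Peaks at 169803994 to 169804353 and 169807567 to 169807901 followed with scores of 444 and 401. The remaining 6 had scores from 84.6 to 250.6. In the RefSeq gene table CBR4 overlaps PALLD, so a peak in the window may lie in either gene or in both, and none was assigned. The nearest other protein-coding genes in that table were DDX60L on the lower and SH3RF1 on the upper side.

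At RBMS1, 29 RD peaks lay between 161.08 and 161.40 Mb of chromosome 2 (hg19), or 90.6 per Mb, and covered 12510 bp. The median window of 320 kb in the RD list held 1 peak, and 0.0171% of such windows held 29 or more. These were 10 windows, of which 1 overlaps the RBMS1 window itself. The share was 0.103% on chromosome 2 alone, and 0.147% over the whole list with peaks scoring 160 or more. The 10 Mb around RBMS1 held 12.0 peaks per Mb, which is above the 4.50 around PALLD, so its window was 7.55 times as dense as its surroundings where that of PALLD was 16.4 times as dense. Scores ran from 83.4 to 1192 with a median of 170.1, below the list's 189. A score of 1000 or more was held by 1 of the 29. RBMS1 thus had the denser window of the pair and the lower median score, although the 95% intervals of the medians overlapped (110.1 to 348 at RBMS1, 154.3 to 320 at PALLD). Both intervals take each peak as an independent draw, so they are too narrow for peaks in chains and are no test.

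**Figure D2:**
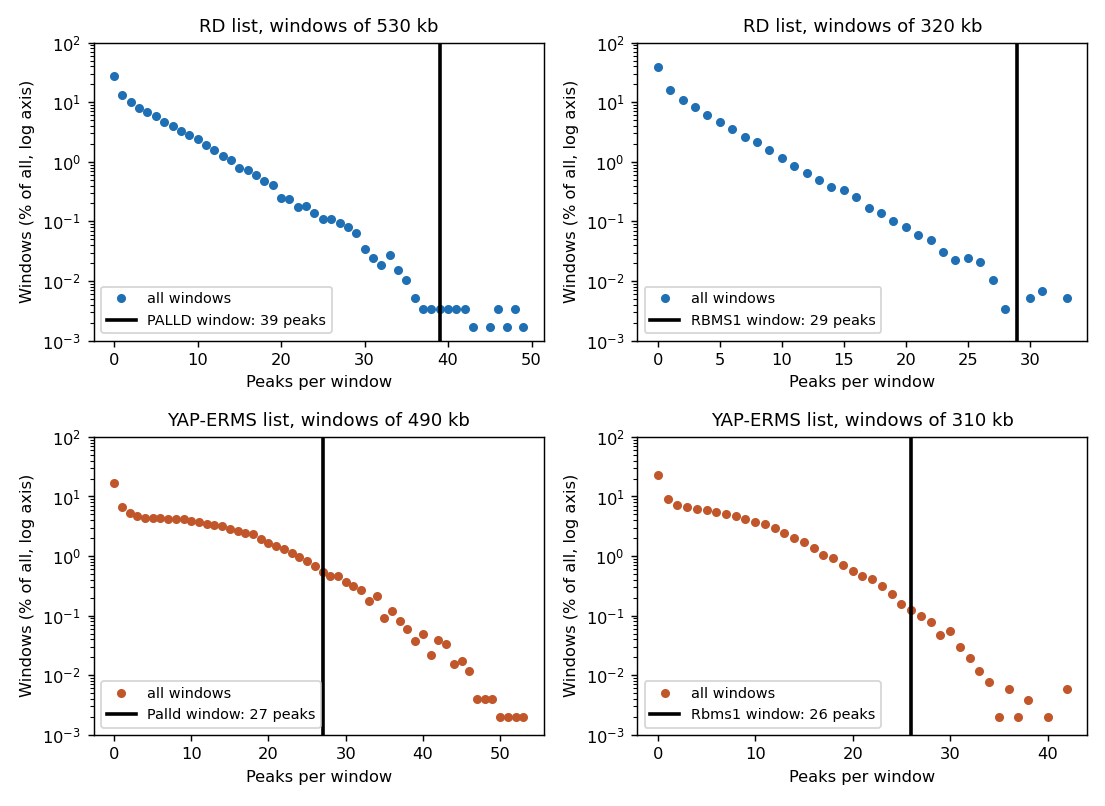
Share of all windows of equal length (%, log axis) by the number of peaks they hold, for each list, with the PALLD and RBMS1 windows as vertical lines. The RD windows of 39 and 29 peaks lie where 0.0274% and 0.0171% of windows are as full or fuller (0.0498% and 0.147% with peaks scoring 160 or more), and the YAP-ERMS windows of 27 and 26 peaks where 3.40% and 0.493% are.

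RBMS1 runs on the minus strand, so its 5′ end is the upper edge of the gene body, at 161.35 Mb to the nearest 10 kb. Of the 23 peaks in the gene body, 14 lay on the 5′ side of the midpoint, or 60.9% (Wilson 95% interval 40.8% to 77.8%), and the interval includes an even split. The 3 equal parts of the body held 9, 13 and 1 peaks from 5′ to 3′. The 1 peak in the last part lay at 161199295 to 161199561, beside a peak-free stretch of 71.8 kb that reached from there to near the 3′ edge.

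Near that 3′ edge stood the highest and widest RBMS1 peak. It lay at 161126427 to 161127546, within the 10 kb rounding of the edge. Its width was 1120 bp and its score of 1192 was above that of 96.3% of RD peaks. It was in no cluster: its neighbours were 12.7 and 71.8 kb away. At PALLD the highest peak lay near the 5′ edge instead.

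The 17 peaks of the main RBMS1 chain spanned 85.6 kb, from 161199295 to 161284890, and lay in the middle of the gene. Their median score was 170.6 and their lowest 89.8. The highest was at 161224315 to 161224911, 597 bp wide with a score of 942, followed by 161232163 to 161232777 with 660 and 161283141 to 161283744 with 472. The chain was the longest by peak number in the RD list, yet 46.0% of the 350 RD clusters had a highest score as high or higher. For the PALLD chains these shares were 34.6%, 46.9% and 46.0% from 5′ to 3′. The median RD cluster had a highest score of 845.6, so the chains stood out by their number of peaks, by which the genes were chosen, more than by their scores.

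A second RBMS1 chain of 6 peaks spanned 19.7 kb at the 5′ end, from 161329190 to 161348911. Its median score was 319 and its highest peak, at 161348355 to 161348911, had a score of 624 and lay within the 10 kb rounding of the 5′ edge. Together the chains held 23 of the 29 RBMS1 peaks, and 11 of them were still in clusters of 5 or more with gaps of at most 5 kb. The share of the RD list in clusters at that gap was not computed. Over all 350 RD clusters, the median had 5 peaks over 21.4 kb and 2.66 peaks per 10 kb. The long chains had 1.99 at RBMS1 and 2.14 and 1.93 at PALLD, and the 5′ chain of RBMS1 had 3.04.

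**Figure D3:**
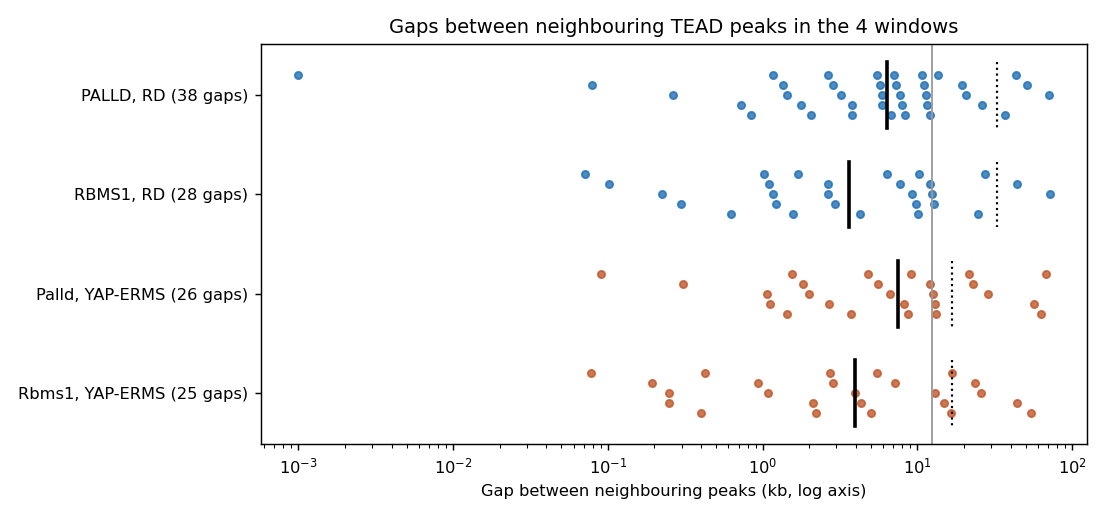
Gaps between neighbouring peaks (kb, log axis) in the 4 windows, as points; thick bars are the medians of each window, dotted bars the medians of its whole list, and the grey line the 12500 bp limit of a cluster. The medians were 6.32 kb at PALLD, 3.60 at RBMS1, 7.46 at Palld and 3.96 at Rbms1.

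Several members may be parts of 1 bound region. Another peak lay within 1 kb of 9 of the 39 PALLD peaks and of 9 of the 29 RBMS1 peaks, against 15.9% of RD peaks. The closest pair at PALLD, 169539637 to 169540141 and 169540143 to 169540668, was 1 bp apart, with scores of 346 and 313. At RBMS1 the closest pair was 71 bp apart, at 161284043 to 161284504 and 161284576 to 161284890. With peaks within 1 kb joined, PALLD had 34 peaks and RBMS1 24. Peaks with a score of 160 or more numbered 25 at PALLD and 16 at RBMS1, of which 14 and 7 were in clusters of 5 or more. The list share in clusters at that score was not computed.

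Peak width is given next for the members, without a test of any difference. Its intervals take each peak as an independent draw, so they are too narrow for peaks in chains. Width rises with score in these lists, so each peak was set against the median width of the peaks of its list with similar scores. At RBMS1, 28 of 29 peaks were wider than that median, against 49.6% of RD peaks, and the median member was 24.5% wider (0.32 log2 units, 95% interval 0.15 to 0.40). The surroundings of RBMS1 shared this: of the other 120 peaks within 5 Mb on either side, 79.2% were wider, with a median of 0.23 log2 units. At PALLD, 20 of 39 peaks were wider, with a median of 0.03 log2 units (-0.08 to 0.24), which became -0.01 with 20 score bins. Of the 45 peaks around PALLD, 35.6% were wider, with a median of -0.12. Copy number and other properties of these chromosome parts that could move peak width and number together were not tested.

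**Figure D4:**
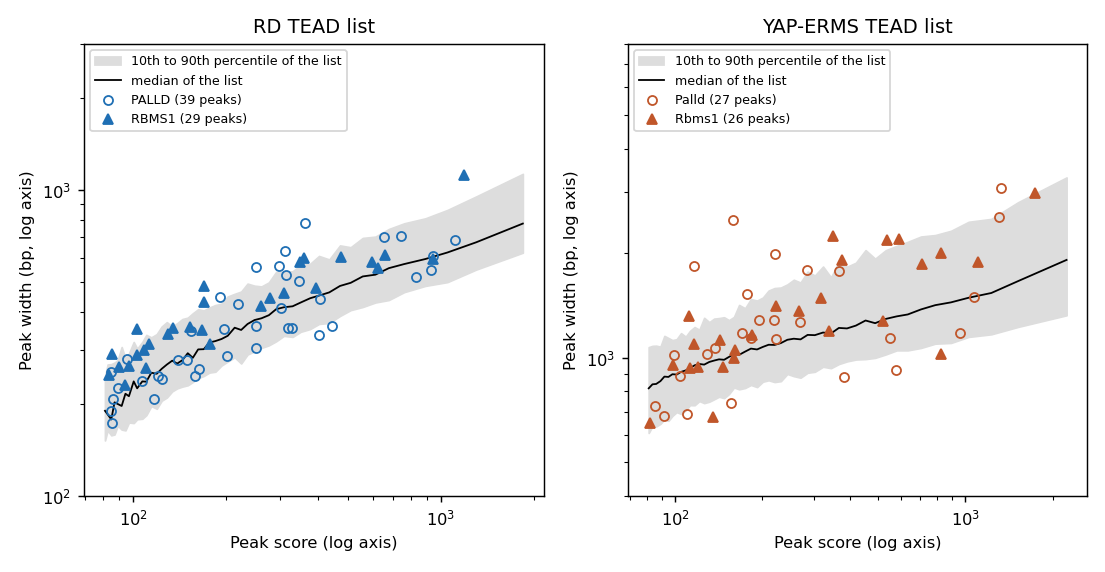
Peak width (bp, log axis) against peak score (log axis) for the members, with the median (line) and the 10th to 90th percentile (grey) of their list at each score. RBMS1 peaks in RD (filled triangles) lie above the line in 28 of 29 cases and PALLD peaks (open circles) on either side of it.

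Both genes also had many peaks in the mouse cells, whose list was called without the RD libraries. At Palld, 27 YAP-ERMS peaks lay between 63.94 and 64.43 Mb of chromosome 8 (mm9), or 55.1 per Mb. The median window of 490 kb in that list held 7 peaks and 3.40% held 27 or more. The 10 Mb around Palld held 11.0 peaks per Mb, and none of the 200 equal windows within 5 Mb on either side held more than 27. At Rbms1, 26 peaks lay between 60.54 and 60.85 Mb of chromosome 2, or 83.9 per Mb, where the median window of 310 kb held 4 and 0.493% held 26 or more, and with peaks scoring 160 or more 1.35% were as full as Rbms1. The 10 Mb around it held 22.0 peaks per Mb. The lists differ in species, control and possibly depth, so the counts of RD and YAP-ERMS stand side by side and no difference in binding is read from them.

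With gaps of at most 12500 bp, fewer of the mouse peaks were in clusters, a contrast that the choice of the genes by their RD peaks fixes in part. At Palld 6 of 27 peaks were in a cluster of 5 or more and at Rbms1 7 of 26, or 22.2% and 26.9%, against 17.6% of the YAP-ERMS list. These counts turned on the gap allowed. With 25 kb they became 22 of 27 and 24 of 26, against 30 of 39 at PALLD and 24 of 29 at RBMS1. By raw counts the mouse share was thus no longer the lower at that gap. The median gap of the whole mouse list was 16.7 kb, below that limit, and that of the RD list 32.7 kb, above it. The share at 25 kb was computed for neither list, so these counts cannot be set against 17.6%. Whether the contrast remained relative to each list was not tested. The 25 kb chains had up to 11 peaks at Palld and up to 16 at Rbms1. Of the 2484 such chains in the mouse list, 15.6% had 11 or more peaks and 4.35% had 16 or more. With gaps of at most 5 kb, 0 peaks at Palld and 7 at Rbms1 were in clusters.

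At Palld the highest peak lay at 64235204 to 64238274 with a width of 3071 bp and a score of 1322, in a cluster of 6 from 64223543 to 64253530. The next, at 64051815 to 64054362 with a score of 1310, was 1 of a pair on the other side of its midpoint: it lay 63.1 kb above the lower edge of the body, and the highest peak 246.7 kb above it. A peak at 64252037 to 64253530 had a score of 1071, and one at 64386955 to 64388131, near the upper edge of the gene body, had 955. Scores of 1000 or more were thus held by 3 of 27 Palld peaks, against 7.38% of the list. The median score was 194.0, against 205 over the list, and 384.9 over the 6 cluster peaks alone. Peaks were spread over the whole gene body, with 8, 9 and 7 in 3 equal parts of the body from the lower to the upper edge. The strands of the mouse genes were not used here, so 5′ and 3′ sides are not given for them.

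At Rbms1 the highest peak lay at 60739092 to 60742065, with a width of 2974 bp and a score of 1739, above that of 97.9% of YAP-ERMS peaks. A peak at 60560174 to 60562058, about 29 kb below the gene body, had a score of 1105, and its neighbour at 60558726 to 60559752 had 827. The cluster of 7 lay at 60705091 to 60722614, with a highest score of 827 at 60715239 to 60717241. The median score was 245.6, against 205 over the list, with a 95% interval of 143.2 to 520 that includes the latter. Of the 26 peaks, 13 had another within 1 kb, against 15.3% of the list, and 18 remained when such peaks were joined. The lower flank held 7 of the 26 and the gene body 18, by edges rounded to 10 kb, where at Palld the body held 24 of 27.

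Mouse peaks were on the wide side at both genes. At Palld 18 of 27 and at Rbms1 18 of 26 were wider than the median at their score, against 49.9% of the list. The median was 0.12 log2 units at Palld (95% interval -0.18 to 0.54) and 0.20 at Rbms1 (0.00 to 0.44). These intervals too take peaks as independent draws and are no test. The peaks within 5 Mb around them were narrower than that median, at -0.09 and -0.10 log2 units.

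The regions most like the members were the other windows of equal length with most peaks in the same list. For PALLD in RD, these were chromosome 2 at 227.15 to 227.68 Mb with 49 peaks, chromosome 2 at 189.15 to 189.68 Mb with 42, and chromosome 12 at 75.90 to 76.43 Mb with 38. Their largest clusters had 8, 7 and 9 peaks, against 13 at PALLD, and their highest scores were 3100, 2213 and 2365, against 1109. Next came chromosome 12 at 65.80 to 66.33 Mb and chromosome 2 at 37.65 to 38.18 Mb, with 35 peaks each. Their highest scores were 1016, below that of PALLD, and 2584, and their largest clusters had 10 and 7 peaks. For RBMS1, the fullest was chromosome 2 at 227.25 to 227.57 Mb with 33 peaks, and next was a window of 33 peaks at PALLD itself. The 2 windows fuller than PALLD thus had higher top scores and shorter clusters. PALLD was chosen by the number and spacing of its peaks, which fixes the difference in cluster length in part. In YAP-ERMS the fullest windows held 53 peaks at the length of Palld and 42 at that of Rbms1.

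The borders of the windows moved the RD counts little: the gene bodies alone held 35 peaks at PALLD and 23 at RBMS1, and flanks of 100 kb gave 43 and 33. The last peak inside the lower border of RBMS1, at 161081047 to 161081277 with a score of 94.4, lay 1.16 kb from it, and the first outside, at 161070880 to 161071490 with a score of 459, lay 8.82 kb from it. At PALLD the nearest peaks outside were 7.96 and 14.4 kb away, with scores of 89.1 and 173.6, and those just inside had 120.4 and 150.0. At Rbms1 the lower border cut between peaks 1.29 kb inside and 1.27 kb outside, with scores of 319 and 259. The nearest peaks outside the Palld window were 151.0 and 148.7 kb away, with scores of 289.5 and 151.6.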

How the data were processed

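Bowtie2 is the aligner and hg19 and mm9 are the builds named in the submitters' processing notes. For each cell line the authors deposited a single list of peaks, named as MACS names them, with a score per peak. The deposited scores begin at 80 in both lists, and the lists' names state a limit that fits a score of 10 per log10 unit of the p-value. Versions, read filters and the handling of duplicates are not stated in the labels. The lists hold no depth, summit or fold.

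Positions are 1-based. Members were taken by midpoint in Python 3.11.15 (pandas 2.3.3, scipy 1.17.1, numpy 2.4.6). Equal windows were placed every 50 kb along each numbered chromosome and X, between its outermost peaks; they overlap and are no test. Width at matched score used 50 score bins per list. Intervals on medians are from order statistics and take each peak as an independent draw, so they are too narrow for peaks in chains. Counting of windows, clusters and widths was tested on simulated data. No test was run, because each group held 1 library. Named peaks were the 5 highest, the widest and the ends of the largest cluster of each window, and any other was picked with its values known. The members and lists were chosen with earlier results of these data known.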

Additional observations from a re-analysis of the deposited data

How the results depend on the processing

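Of 58 alternatives to 22 values, 32 stayed within 1.5 times of a count or within the 95% interval of a share or median, and 26 moved. No value was a tested difference. The median width at matched score of PALLD in RD changed sign with 20 score bins, from 0.03 to -0.01 log2 units. It stayed within its 95% interval and was counted as unmoved. Only peaks scoring 160 or more left 25 at PALLD, 16 at RBMS1, 17 at Palld and 16 at Rbms1, with 14, 7 and 0 in clusters at the first 3 of these. With a largest gap of 5 kb, cluster peaks numbered 0 at PALLD, 11 at RBMS1 and 0 at Palld. With 25 kb they numbered 30 at PALLD, 24 at RBMS1, 22 at Palld and 24 at Rbms1. The share of each whole list in clusters at these other gaps and scores was not computed. The share of equal windows as full on the same chromosome was 0.131% for PALLD, 0.103% for RBMS1 and 2.705% for Palld. Over the whole list at scores of 160 or more, the share was 0.0498% for PALLD, 0.147% for RBMS1, 4.69% for Palld and 1.35% for Rbms1. Over those windows of the whole list with a peak of any score, it was 4.08% for Palld and 0.636% for Rbms1. Over the 200 windows within 5 Mb on either side, an alternative added after the data were seen, it was 2.50%, 0.500%, 1.00% and 1.50% in the same order. These were 5, 1, 2 and 3 windows, and all of them overlap the window of the member itself. The median score of Palld peaks was 384.9 over its 6 cluster peaks. The cause was not tested. The share on the 5′ side was not computed for the mouse genes, whose strand was not used. No paired analysis was possible because each group held 1 library.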

Other observations

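The second highest peaks of PALLD and of RBMS1 in RD had the same score to the second decimal, 941.71, and near equal widths of 611 and 597 bp; these are the 2 RD peaks with that score. Equal scores are common in both lists: 56.4% of RD peaks and 57.9% of YAP-ERMS peaks share their score with another. In each window a few peaks held much of the summed score: the 3 highest made up 24.1% at PALLD, 32.8% at RBMS1, 38.3% at Palld and 35.7% at Rbms1. The longest peak-free stretch between members was 71.3 kb at PALLD, 71.8 kb at RBMS1, 67.5 kb at Palld and 53.9 kb at Rbms1.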
